A study of Mus musculus with 10 samples.

Results

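The classical MHC class II genes of the mouse, their invariant chain and their regulator were followed in the hippocampus of 10 mice as 7 genes chosen by symbol (H2-Aa, H2-Ab1, H2-Eb1, Cd74, Ciita, H2-DMa and H2-DMb1), out of 21956 genes in the table. All 7 symbols were found, each with 1 row, and all 7 passed the filter on low counts that left 14396 genes for testing. The 7 were picked with the comparison of the 2 groups already known, so that comparison is given below as a description of these mice. All 10 animals carried the hMapt genotype and were 6 months old. The 5 control mice carry the treatment label control, and the labels' extraction text calls them control-injected without naming what was injected. The other 5 received AAV-circTau6, an adeno-associated virus that carries circTau6, and the series' design text places the measurement 80 days after injection. The labels name no strain, promoter of the virus, sex or litter. Whether equal replicate numbers mark a shared litter or day is likewise not in the labels.

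MHC class II molecules display peptides taken up from outside the cell to CD4+ T cells. An alpha and a beta chain pair in the endoplasmic reticulum around the invariant chain Cd74, which fills the groove and steers the complex to endosomes. There proteases trim the invariant chain, and H2-DM, a dimer of H2-DMa with a DM beta chain, exchanges the remaining fragment for a peptide. The coactivator Ciita has no DNA-binding domain of its own and acts through factors that sit on the X and Y boxes shared by class II promoters. In the healthy brain class II is sparse, being carried mostly by macrophages and dendritic cells of the borders, by a minority of activated microglia and by the few B cells present. In whole tissue, more cells of such a type and more RNA per cell cannot be told apart.

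The promoter letters are shown because these genes share a regulator. Of the members looked up, RefSeq promoters (GRCm38.p6) were found for H2-Aa, H2-Eb1, H2-DMa and H2-DMb1. The 150 bases that end just before the RefSeq gene start are printed 5′ to 3′ on the gene's own strand. This is the minus strand for H2-Aa and the plus strand for the others. Capitals mark matches to 2 motifs, an X box core AACNGAT and a Y box core TGATTGG. Both were chosen after these promoters had been read, and both were searched on both strands.
H2-Eb1: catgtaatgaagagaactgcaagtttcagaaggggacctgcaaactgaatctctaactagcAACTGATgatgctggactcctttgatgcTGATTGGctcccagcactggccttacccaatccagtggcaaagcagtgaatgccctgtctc
H2-DMb1: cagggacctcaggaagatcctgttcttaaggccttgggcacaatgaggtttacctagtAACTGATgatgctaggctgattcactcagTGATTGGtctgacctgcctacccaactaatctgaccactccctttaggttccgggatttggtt
H2-Aa: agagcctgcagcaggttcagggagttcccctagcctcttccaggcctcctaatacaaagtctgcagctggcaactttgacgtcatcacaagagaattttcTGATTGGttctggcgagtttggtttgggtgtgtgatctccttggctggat
H2-DMa: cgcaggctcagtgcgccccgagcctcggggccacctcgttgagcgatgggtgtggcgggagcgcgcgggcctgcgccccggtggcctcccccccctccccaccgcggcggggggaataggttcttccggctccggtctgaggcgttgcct
These windows lie at chr17:34305717-34305866, chr17:34153041-34153190, chr17:34287824-34287973 and chr17:34122682-34122831 in the order printed. In H2-Eb1 the X box core began 89 bases and the Y box core 61 bases before the gene start, with 21 bases between them. In H2-DMb1 the cores began 92 and 63 bases before the start, with 22 bases between them. H2-Aa had the Y box core 50 bases before its start and no match to the X box letters. H2-DMa matched neither motif in this window or in that of a second RefSeq start. Both windows lie inside the span of H2-DMa in the GENCODE annotation, 34119541 to 34139101. The printed window begins just past the 5′ end of Brd2, a minus-strand gene that ends at 34122634. The bases before the GENCODE start of H2-DMa were not searched, so the lack of a match does not cover them. An X box core followed by a Y box core on the same strand with at most 40 bases between them occurred in 13 of 32851 promoters (0.0396%), among them H2-Eb1, H2-DMb1 and their neighbours H2-Eb2 and H2-DMb2. The X box core alone was in 6.94% and the Y box core alone in 7.82% of all promoters, and in the printed windows the motifs shared no base. A match describes letters, and binding was not measured.

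Depth was 14762952 to 17647138 counts per library, and 3 counts, the limit below which a gene is read as near 0 here, equal 0.203 CPM in the shallowest library. CPM is the count relative to library size, with the libraries scaled to each other. Hippocampal neuron markers were present in all libraries, with a summed level of 4802 to 5593 CPM. Choroid plexus transcripts were nearly lacking in control replicate 2 and circTau6 replicate 5, at 75.8 and 65.4 CPM summed over 10 markers against 1936 to 5633 CPM in the other libraries, so calls, spreads and likeness to other genes are also given without circTau6 replicate 5 or without both. TPM, ratios and summed marker levels are given for all 10 libraries. All 7 members had at least 6 counts in each library.

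The alpha and beta chains that form the peptide groove had higher values in 4 of the 5 circTau6 mice, and lay among or below the controls in the remaining mouse. H2-Aa, the alpha chain of the I-A molecule, had 3.82, 2.73, 3.22, 2.81 and 4.21 CPM in control replicates 1 to 5, and 9.12, 8.72, 11.999, 18.3 and 2.45 CPM in circTau6 replicates 1 to 5. Replicates 1 to 4 of the circTau6 group lay above every control library and replicate 5 below every one. The control mean was 3.36 CPM ± 0.641 (SD, n = 5). The circTau6 mean was 10.1 CPM ± 5.73 (SD, n = 5), and the log2 difference came to 1.60 ± 0.43 (SE).

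H2-Ab1, the beta chain that pairs with H2-Aa, had 1.75, 2.73, 2.18, 1.74 and 1.40 CPM in the controls and 3.91, 5.80, 5.51, 11.5 and 1.29 CPM in the circTau6 libraries. As for its partner, replicates 1 to 4 were above every control and replicate 5 below every control. On the log2 scale the groups differed by 1.51 ± 0.47 (SE).

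H2-Eb1, the beta chain of the I-E molecule, had 1.68, 1.90, 2.01, 1.21 and 2.87 CPM in the controls and 4.76, 4.92, 6.03, 13.5 and 1.63 CPM in the circTau6 libraries. Here circTau6 replicate 5 fell inside the control range, and the other 4 were above it. The fold change was 1.67 ± 0.48 (SE) on the log2 scale. Its partner H2-Ea, which some laboratory strains such as C57BL/6 do not express, had no entry among the authors' genes under the symbols H2-Ea or H2-Ea-ps. Levels of the I-E pair therefore cannot be given.

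Cd74, the invariant chain, had the most counts of the 7 over all libraries, and its values followed the chains. It had 7.18, 7.12, 6.54, 5.62 and 7.94 CPM in the controls, and 13.9, 21.0, 21.2, 32.3 and 4.35 CPM in the circTau6 libraries. Again replicate 5 was the lowest of all 10 libraries and replicate 4 the highest. The log2 fold change was 1.43 ± 0.44 (SE), and the ratio of the group means was 2.70.

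H2-DMa and H2-DMb1, the subunits of the peptide exchanger, had smaller differences with groups that overlapped. H2-DMa had 6.73, 7.89, 8.55, 8.03 and 7.94 CPM in the controls and 8.33, 12.002, 11.0, 8.77 and 8.03 CPM in the circTau6 libraries, a difference of 0.30 ± 0.13 (SE) on the log2 scale. Its 2 highest libraries were circTau6 replicates 2 and 3, and replicates 1 and 5 lay inside the control range. H2-DMb1 had 2.91, 1.13, 1.89, 1.34 and 1.07 CPM in the controls and 2.04, 1.81, 2.99, 2.41 and 1.36 CPM in the circTau6 libraries, with 0.35 ± 0.31 (SE). Only circTau6 replicate 3 lay above every control, since control replicate 1 was nearly as high. H2-DMb2, the other DM beta gene, had 2 to 13 counts per library, below the filter, and the 2 beta genes are close paralogs between which the authors' counting may have split reads.

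Ciita did not share the pattern of the chains. It had 6, 17, 11, 24 and 17 counts in the controls and 16, 15, 16, 14 and 15 counts in the circTau6 libraries. The 5 circTau6 values all lay within the control range, also in replicate 4, where the chains were highest. The log2 fold change was -0.06 ± 0.35 (SE), a wide error at this depth, and its sign turned under other settings: it was 0.08 with limma voom, 0.02 with a replicate block and 0.20 without control replicate 4. A change of Ciita of moderate size was not detectable at this depth in either direction.

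**Figure D1:**
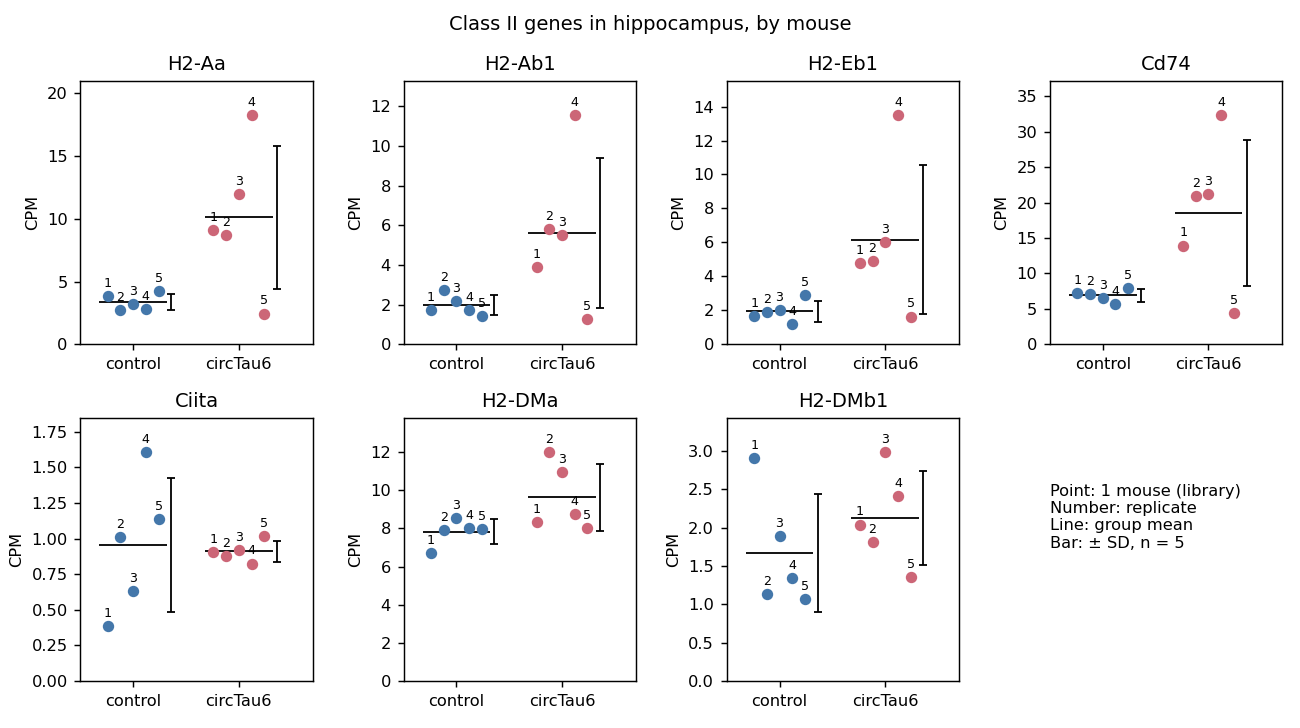
Level of each of the 7 genes in CPM (vertical axis, from 0) for the 5 control and 5 circTau6 mice; each point is 1 library with its replicate number, lines are group means and bars ± SD. For H2-Aa, H2-Ab1, H2-Eb1 and Cd74 circTau6 replicates 1 to 4 stand above all controls and replicate 5 lies with or below them, while for Ciita the circTau6 values of 0.824 to 1.02 CPM sit inside the control range.

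Across all genes, edgeR's quasi-likelihood test called 0 of 14396 genes at an adjusted p under 0.05 (0%), and therefore 0 of the 7. The adjusted p was 0.981 for each of the members except Ciita, which had 0.994. At an unadjusted p under 0.05 it had 637 genes, 371 of them higher (2.58% of all tested). Because the 7 were chosen with this contrast in view, nothing is read from their share of low p-values. DESeq2 called 15 genes, all higher (0.104%), and 1 was a member, H2-Eb1, with an adjusted p of 0.0495. The authors' deposited table gives an FDR under 0.05 for 8 of 21956 genes (0.0364%), of which 0 are members. The lowest member FDR in the authors' deposited table was 0.209, for H2-Aa, with a log2 fold change of 1.61.

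As a description, 6 of 7 members had a log2 fold change above 0, where 49.9% of all genes did, and the median was 1.43 against -0.00024 over all genes tested. A log2 fold change of at least 1 was found for 4 of 7 members and for 0.382% of all genes. Those same 4 genes, H2-Aa, H2-Ab1, H2-Eb1 and Cd74, had at least 4 of 5 circTau6 libraries above every control, which 2.85% of all genes had. None of the 7 had all 5 above, which 0.472% of all genes had.

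Single libraries moved these values. Without circTau6 replicate 5, edgeR called 4 of 14523 genes (0.0275%), all higher, and 2 of them were members: H2-Aa at 1.84 ± 0.22 (SE) with an adjusted p of 0.0195, and Cd74 at 1.68 ± 0.21 (SE) with 0.0331. Without both libraries poor in choroid plexus transcripts it called 3 genes (0.0208%), with H2-Aa at 1.77 ± 0.24 (SE) and an adjusted p of 0.0489. Without circTau6 replicate 4, the highest library, the log2 fold changes of the 4 genes were 1.07 to 1.27. None of the other single libraries, left out in turn, brought a member past the threshold.

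**Figure D2:**
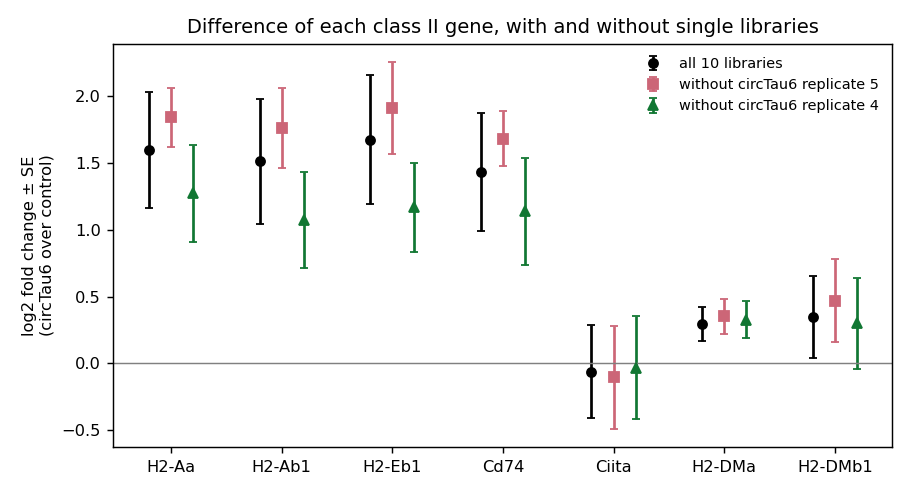
Log2 fold change of circTau6 over control ± SE from edgeR (vertical axis) for each gene, with all 10 libraries, without circTau6 replicate 5 and without circTau6 replicate 4. The 4 genes at the left stay above 1 in all 3 fits, H2-DMa and H2-DMb1 lie between 0 and 0.5, and Ciita lies around 0.

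The spread between mice was wider among circTau6 than among control libraries for 5 of the members and narrower for Ciita and H2-DMb1; these differences in spread were not tested. Cd74 varied by 12.5% (coefficient of variation) among controls, where counting error alone gives 9.55%, and by 55.6% among circTau6 libraries, where counting gives 5.62%. For H2-Aa the corresponding values were 19.1% in control and 56.7% in circTau6 libraries, for H2-Ab1 26.1% and 67.1%, and for H2-Eb1 31.4% and 71.5%. Counting error alone gives 9.55% to 18.0% for these 4 genes in control and 5.62% to 10.2% in circTau6 libraries. Part of the wide spread came from 1 library: without circTau6 replicate 5 it was 34.4% for Cd74, 36.6% for H2-Aa, 49.9% for H2-Ab1 and 57.0% for H2-Eb1, still above the control values. H2-DMa varied by 8.56% in control libraries, below its counting error of 8.94%, and by 18.3% in circTau6 libraries. Ciita had 49.3% in control and 7.89% in circTau6 libraries, the latter less than its counting error of 25.6%, and H2-DMb1 had 46.0% in control and 29.0% in circTau6 libraries. Averaged over the 7 genes, controls had 1.47 ± 0.064 log2 CPM (SD, n = 5). The circTau6 libraries had 2.30 ± 0.66 log2 CPM (SD, n = 5), and 2.56 ± 0.33 (SD, n = 4) without replicate 5.

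Levels between genes can be compared only per transcript length, as TPM, the authors' transcript abundance scaled to length and library total. In controls the order of mean TPM was H2-DMa at 15.5 ± 1.20 (SD, n = 5), Cd74 at 13.4 ± 1.89, H2-Aa at 7.33 ± 1.43, H2-Ab1 at 4.26 ± 1.22, H2-Eb1 at 3.33 ± 0.900, H2-DMb1 at 2.92 ± 1.36 and Ciita at 0.614 ± 0.277. Neighbours H2-DMa and Cd74 kept their order in 4 of 5 control libraries, H2-Ab1 and H2-Eb1 in 4 of 5, and H2-Eb1 and H2-DMb1 in 2 of 5, so these neighbours are within their spread. The other neighbours kept their order in 5 of 5. In circTau6 libraries Cd74 came first at 36.8 ± 20.5 TPM (SD, n = 5) and H2-Aa second at 22.4 ± 12.8, and H2-DMa after it at 19.1 ± 3.03. H2-Aa was above H2-DMa in 3 of 5 circTau6 libraries and in 0 of 5 controls, where its TPM was 0.366 to 0.623 of that of H2-DMa.

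**Figure D3:**
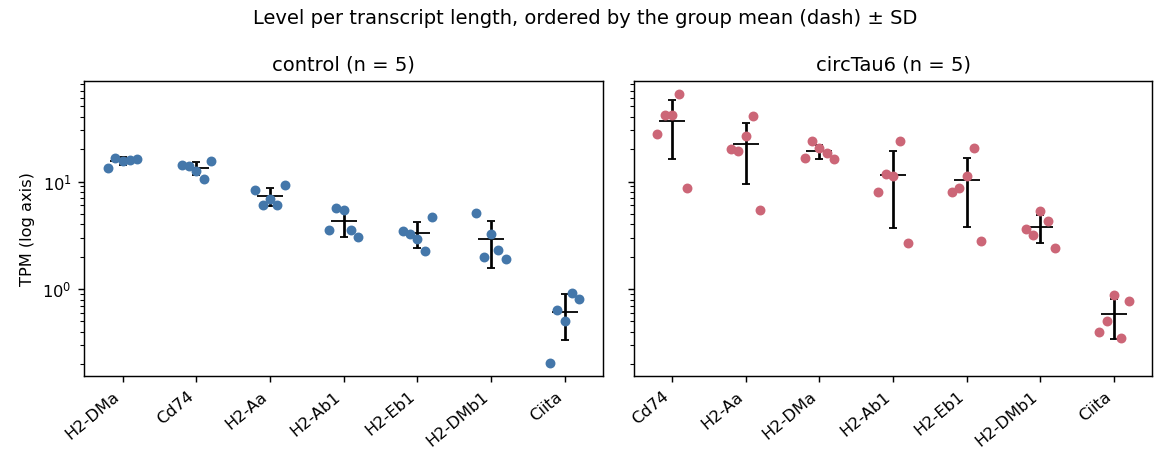
Level per transcript length in TPM (vertical log axis) of the 7 genes, ordered by the group mean, in control (left) and circTau6 libraries (right); points are libraries, dashes means and bars ± SD. H2-DMa is first in control, where Ciita is last at 0.614 TPM, and Cd74 is first in circTau6 libraries.

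While the levels differed several-fold between mice, the proportion of the invariant chain to the chains stayed within narrower limits. The TPM of Cd74 divided by the summed TPM of H2-Aa, H2-Ab1 and H2-Eb1 averaged 0.895 ± 0.044 (SD, n = 5) for controls. For circTau6 mice it averaged 0.843 ± 0.115 (SD, n = 5), and over all 10 it ranged from 0.759 to 1.04. In circTau6 replicate 4, where the 4 genes had 1284 counts together, the ratio was 0.759, and in replicate 5, with 143 counts, it was 0.796. The ratio of H2-Aa to its partner H2-Ab1 was 1.06 to 3.03 in control and 1.62 to 2.51 in circTau6 libraries. The DM subunits were less even, with H2-DMa at 2.62 to 8.68 times the TPM of H2-DMb1 over the 10 libraries.

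Variation between mice of the same group was not used to choose the genes, and it was tested by relating Cd74 to each of the 6 other members after the group means had been removed. Pearson's r over 10 libraries was 0.96 with H2-Aa, 0.92 with H2-Ab1 and 0.93 with H2-Eb1, with adjusted p of 0.0134, 0.0210 and 0.0048 in a two-sided permutation test within groups, adjusted by Benjamini-Hochberg over the 6 relations; the raw p were 0.00448, 0.0105 and 0.0008. Spearman's rho was 0.82, 0.67 and 0.79 for these genes, with permutation p of 0.00634, 0.0717 and 0.0104 and adjusted p of 0.0312, 0.143 and 0.0312. The other members had r of 0.44 for H2-DMa, 0.44 for H2-DMb1 and -0.19 for Ciita, with permutation p of 0.429, 0.134 and 0.0735 and adjusted p of 0.429, 0.161 and 0.110. Their rho was 0.41, 0.44 and -0.33, with permutation p of 0.332, 0.201 and 0.207 and adjusted p of 0.332, 0.249 and 0.249.

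These relations rest on circTau6 replicates 4 and 5, the libraries farthest from the median of Cd74. With both left out, r was 0.53 with H2-Aa, 0.32 with H2-Ab1 and 0.65 with H2-Eb1, with raw permutation p of 0.234, 0.450 and 0.0422, and it was 0.54 for H2-DMa, 0.06 for H2-DMb1 and -0.22 for Ciita. Within each group alone there are 5 libraries, too few for a correlation. No batch is named in the labels.

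**Figure D4:**
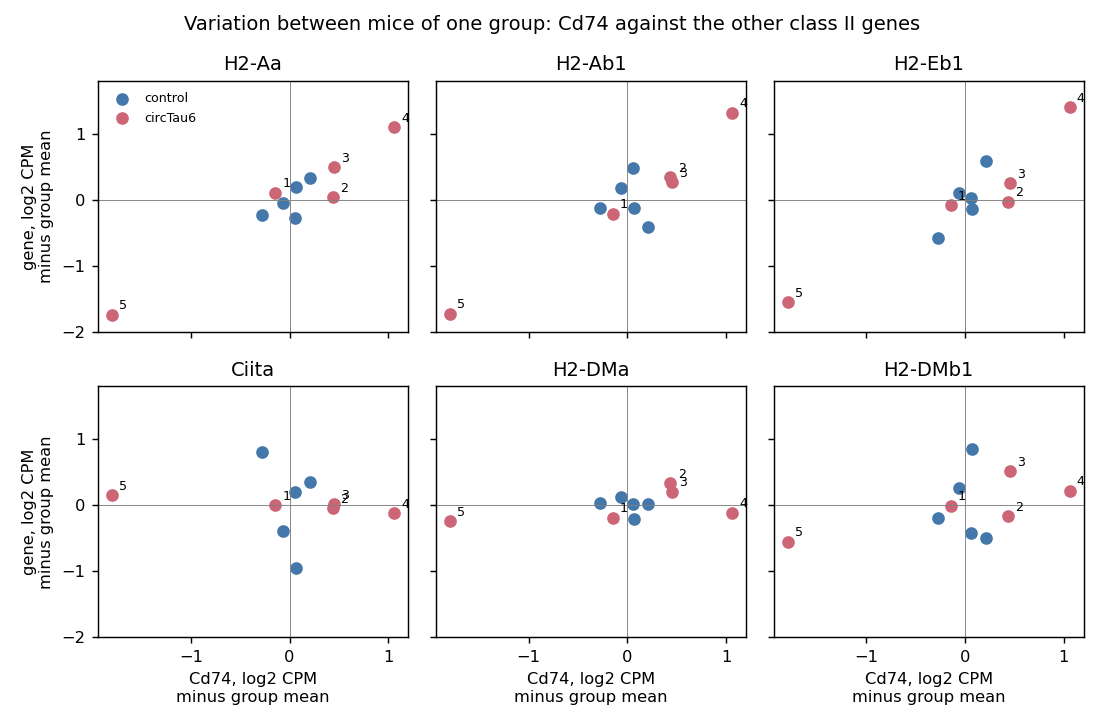
Log2 CPM minus the group mean of Cd74 (horizontal axis) against that of each other gene (vertical axis) in 10 libraries, with circTau6 replicates numbered. For H2-Aa, H2-Ab1 and H2-Eb1, replicate 5 at the lower left and replicate 4 at the upper right set the line, and for Ciita and H2-DMa the points lie flat.

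Among all other tested genes, those with the pattern most like the mean of H2-Aa, H2-Ab1, H2-Eb1 and Cd74, again with group means removed and over 10 libraries, were Map3k21 (r = 0.92), Adh1 (0.91), Hacd4 (0.91), Nt5c (0.90), Ltbr (0.90), Camsap3 (0.89), Rad9a (0.89), Fars2 (0.89), Eef2kmt (0.89) and Slc43a3 (0.88). These are the 10 highest of 14396 genes on a measure that all share with the same libraries, and they are given without a p. Each of the 10 had its lowest count in circTau6 replicate 5, for example 148 for Nt5c against 179 to 284 elsewhere. Without that library the r of these 10 genes fell to 0.36 to 0.78.

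Some marker lists also followed the class II pattern, though none of their genes was among the 10. All 10 choroid plexus markers had a positive r, 0.48 to 0.75 and highest for Calml4, against a median of -0.01 over all genes. Without circTau6 replicate 5 they had -0.06 to 0.10, and without both choroid-poor libraries 0.09 to 0.36. The 8 meningeal fibroblast markers had 0.21 to 0.73 with all libraries, highest for Dcn, and 0.04 to 0.51 without circTau6 replicate 5. The 3 tested B and plasma cell genes had 0.44 to 0.58, and 0.72 to 0.81 without that library. Jak1, a kinase of interferon receptors, had 0.76, within a list that ran from -0.70 upward with a median of 0.04. H2-DMb1 had 0.44 and ranked 2246. These values describe libraries that the genes share, and the part of choroid plexus or meningeal tissue in the class II values was not tested.

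The remaining class II genes were rare. H2-Ob, the beta chain of H2-DO, which restrains H2-DM in B cells and some dendritic cells, had 7, 4, 6, 4 and 10 counts in control and 24, 13, 7, 13 and 8 counts in circTau6 libraries. Its partner H2-Oa had 1, 7, 3, 2 and 4 counts in control and 13, 9, 7, 11 and 7 counts in circTau6 libraries. Both had more counts in most circTau6 libraries, and 3 of 5 lay above the highest control count for each gene. Neither passed the filter, so neither was tested, and H2-Eb2 had 5 counts over all libraries.

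The factors that bind class II promoters had small differences. Of 7 (Rfx5, Rfxap and Rfxank of the X box complex, Nfya, Nfyb and Nfyc of the Y box complex, and Creb1), 0 passed the test, 3 had a positive and 4 a negative log2 fold change, and the median was -0.0024. The lowest unadjusted p were those of Nfya at 0.18 ± 0.11 (SE) and Creb1 at -0.11 ± 0.07 (SE). Of 10 genes of interferon-gamma signalling, which induces Ciita, 8 passed the filter and 0 the test, with a median of 0.10. The lowest unadjusted p were those of Irf8, a transcription factor of microglia and macrophages, at 0.38 ± 0.16 (SE), and Irf2 at -0.18 ± 0.09 (SE). Ifng itself had 0 counts in 9 of 10 libraries and 2 counts in circTau6 replicate 5.

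Of 7 genes that trim the invariant chain or supply peptides, 0 passed the test and the median was 0.10. Ctss, the cathepsin that makes the last cuts in the invariant chain, had 0.44 ± 0.07 (SE) with an edgeR adjusted p of 0.0713, and 5 of 5 circTau6 libraries above every control, as 0.472% of all genes had. In circTau6 replicate 5, the lowest for Cd74, Ctss was at 85.1 CPM, above the highest control of 75.7 CPM. The asparagine endopeptidase Lgmn had 0.19 ± 0.06 (SE), and Sppl2a, which clears the last invariant chain fragment from the membrane, -0.11 ± 0.06 (SE). Marchf1 and Marchf8, ligases that send class II molecules for degradation, and Cd83, which counters Marchf1, had log2 fold changes of 0.03, -0.01 and 0.0045, and 0 of these 3 passed. Of 4 costimulatory genes 3 passed the filter and 0 the test: Cd86 had 0.69 ± 0.24 (SE), Cd80 -0.45 ± 0.28 (SE) and Icosl 0.09 ± 0.12 (SE).

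In GRCm38, 5 of the members lie in the class II region of chromosome 17, with H2-DMa (ENSMUSG00000037649) from 34119541 to 34139101, H2-DMb1 (ENSMUSG00000079547) from 34153072 to 34160230, H2-Ab1 (ENSMUSG00000073421) from 34257689 to 34269419, H2-Aa (ENSMUSG00000036594) from 34282744 to 34287823 and H2-Eb1 (ENSMUSG00000060586) from 34305867 to 34316674. Cd74 (ENSMUSG00000024610) is on chromosome 18 from 60803848 to 60812652 and Ciita (ENSMUSG00000022504) on chromosome 16 from 10480059 to 10528418. Cd74 thus had a pattern like that of the chains without lying beside them. The 5 other tested genes between H2-Oa and H2-Eb2 had positive log2 fold changes, from 0.02 for Brd2, a chromatin reader, to 1.03 for Psmb8, an immunoproteasome subunit. Psmb8 and Tap2, of the class I pathway, were also among the 0.472% of genes with 5 of 5 circTau6 libraries above every control, and in replicate 5 they had 3.67 and 8.30 CPM against control maxima of 3.49 and 8.21 CPM. In the annotation H2-DMa overlaps Brd2, Ciita overlaps Dexi and H2-Eb1 overlaps Gm20513, each on the opposite strand. The libraries were strand-specific per the labels, but whether counting used the strand is not stated, so reads in the overlaps cannot be assigned with certainty.

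Markers of cells that can carry class II were read in the same libraries. The 9 B and plasma cell genes summed to 22.6 to 70.0 CPM in control and 18.3 to 171 CPM in circTau6 libraries, with the highest value in circTau6 replicate 4, the library highest in class II. In circTau6 replicate 1 the same list had its lowest value, 18.3 CPM, while the 7 class II genes summed to 43.0 CPM there, above the control range of 22.4 to 26.6 CPM. Of the 3 tested genes of the list, 0 passed. Igkc, an immunoglobulin light chain, had 31 counts in circTau6 replicate 1 and 1312 in replicate 4.

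The 8 border macrophage markers summed to 11.4 to 19.5 CPM in control and 8.90 to 30.4 CPM in circTau6 libraries, and 0 of 6 tested passed. The lowest of these values, 8.90 CPM, was in circTau6 replicate 2, where class II stood at 55.1 CPM. The 8 meningeal fibroblast markers summed to 567 to 867 CPM in control libraries. They were above that range in circTau6 replicates 1, 3 and 4, at 887, 1610 and 1151 CPM, where class II was high too. They were below it in replicate 2, at 346 CPM, where class II was also high, and in replicate 5, at 544 CPM. Of the 8, 7 had a positive log2 fold change and 0 passed. Choroid plexus markers were low in control replicate 2, where class II was 24.5 CPM, inside the range of the other controls, and in circTau6 replicate 5, where it was 20.1 CPM, the lowest of all.

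Dendritic cell markers summed to 30.6 to 35.0 CPM in control and 31.8 to 38.2 CPM in circTau6 libraries, with 0 of 5 tested passing. Itgax, which microglia can also express, had 0.97 ± 0.47 (SE), Zbtb46 0.23 ± 0.12 (SE) and Clec9a 0.79 ± 0.41 (SE). Siglech had 0.11 ± 0.12 (SE), and Flt3 went the other way at -0.12 ± 0.13 (SE). Siglech and Flt3 made up most of the sum, with control means of 13.4 and 9.67 CPM. The untested markers Xcr1, Clec10a, Cd209a, Ccr7 and Batf3 had 27, 104, 44, 16 and 31 counts over all libraries, so the sum says little about them. The 6 monocyte markers summed to 35.1 to 40.9 CPM in control and 35.8 to 44.9 CPM in circTau6 libraries, 2 of 5 above every control. Vcan made up most of this sum, averaging 36.8 CPM among controls and 35.4 CPM among circTau6 mice. The monocyte sum therefore says little about the other markers of the list. Of the 6 markers 2 were tested and 0 passed: Vcan had -0.05 ± 0.08 (SE), and Ccr2 had 1.52 ± 0.60 (SE). Ccr2 counts were 23, 25, 20, 19 and 7 for circTau6 mice and 4, 1, 3, 20 and 2 for controls. For the 10 T cell genes the sum was 5.37 to 7.24 CPM among controls. Among circTau6 mice it reached 7.46 to 13.6 CPM, 5 of 5 above every control. Lag3 and Lck gave most of it, with control means of 3.51 and 1.16 CPM and circTau6 means of 5.02 and 1.39 CPM. Whether the higher sum reflects T cells was not tested. Of 3 genes tested 0 passed. Lag3 had 0.52 ± 0.22 (SE), with 4 circTau6 libraries above and 1 below every control. Lck had 0.27 ± 0.32 (SE), and Trac, a T cell receptor constant segment, 1.18 ± 0.45 (SE). Cd3e had at most 5 counts per library. Microglia markers summed to 353 to 382.3 CPM in control and 382.4 to 409 CPM in circTau6 libraries, also 5 of 5 above every control and had a median log2 fold change of 0.16 with 0 of 9 passing. The part of any of these cells in the class II values was not tested.

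**Figure D5:**
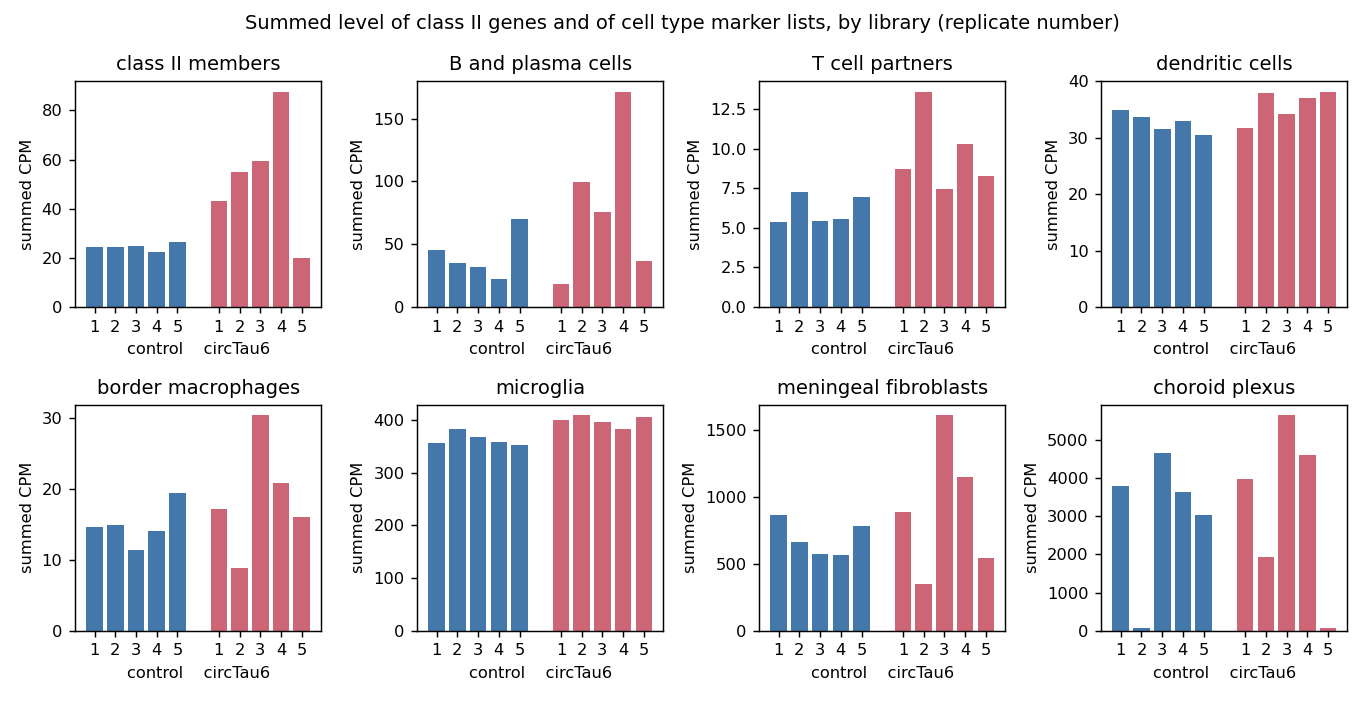
Summed CPM (vertical axis, from 0) of the 7 class II genes and of 7 marker lists in each library; blue bars are control and red bars circTau6 replicates 1 to 5. Class II is high in circTau6 replicates 1 to 4, B and plasma cell genes in replicates 2 to 4 but not 1, and choroid plexus genes are near 0 in control replicate 2 and circTau6 replicate 5.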

How the data were processed

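RNA of hippocampus was measured by sequencing in 10 libraries, 5 control and 5 circTau6, grouped by the treatment label. Per the labels' protocols, ribosomal RNA was depleted and libraries were strand-specific. StringTie 1.3.1 and RSEM appear, with no stated role, among the tools of the submitters' processing notes. They do not state the aligner, genome build or annotation, not given in the sources used here. The authors' table holds, per the file headers, counts and TPM for each gene and library, used as deposited, with the log2 fold change, p-value and FDR of their own comparison, whose test is not stated. The counts may be rounded estimates, since 108 entries had a count of 0 and a TPM above 0.

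Counts were tested with edgeR 4.0.16 (R 4.3.3): filterByExpr (minimum count 10), TMM scaling and the robust quasi-likelihood F test, adjusted by Benjamini-Hochberg over 14396 genes with a threshold of 0.05. SE is the fold change over the root of F. Log2 CPM used a prior count of 2. TPM were averaged, not tested. Covariation used 100000 permutations within groups. Alternatives were DESeq2 1.42.0, limma 3.58.1 (voom, quality weights), a replicate block, left-out libraries and other filters or scalings. The fit was tested on simulated data. The members, lists and alternatives were chosen with earlier results of these data known. Genes named were all members, up to 4 per list by lowest p, and the 10 most alike. Other genes were chosen after their values were seen, such as H2-Oa, H2-Ob, Cd3e, Igkc, Psmb8, Tap2, Calml4, Dcn, Jak1, Flt3, P2ry12 and Gpr34. None of the 45 library pairs agreed within sampling noise, so each counts as 1 sample. P-values reflect the spread among these 5 mice in each group. The limit of 3 counts covers counting error only. Of 21956 IDs, 21804 matched GENCODE M21 (GRCm38), the source of coordinates.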

Additional observations from a re-analysis of the deposited data

Results flagged for a closer look

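In circTau6 replicate 3 the summed level of the 6 endothelial markers was 170.0 CPM, far above the 134 to 143 CPM of the other circTau6 libraries. The control libraries had 126 to 160 CPM. Of 50 groups of values examined, covering the class II genes and the marker lists, this was the 1 that was picked out, and chance alone picks out about 5%. Class II genes summed to 59.6 CPM in that library, between the values of circTau6 replicates 2 and 4. The low class II values of circTau6 replicate 5 were not picked out by the same rule.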

How the results depend on the processing

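The count of genes called by edgeR was 0 with TMM, with RLE scaling and with a filter at a mean of 1 CPM. It was 15 with DESeq2, 2 with limma voom, 2 with total counts, 2 without a filter on low counts, 3 without both choroid-poor libraries, and 0 to 4 when single libraries were left out. With a replicate block it was 4, none of them a class II gene. Same-numbered libraries of the groups correlated across genes at -0.0764 to 0.136, so the labels' numbers were not taken as pairs, and 0 of 5 controls correlated best with the circTau6 library of its own number.

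H2-Aa, H2-Ab1, H2-Eb1, Cd74, H2-DMa and H2-DMb1 had a positive log2 fold change under all of these settings. Ciita had 0.076 with limma voom and 0.019 with a replicate block, and -0.26 to 0.20 with single libraries left out; the cause was not tested. The mean level of the 7 genes differed by 0.82 log2 CPM, with 0.65 to 1.09 over left-out libraries. For this level the replicate block averages same-numbered differences, which gives 0.82 by construction and is no separate check.

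The checks of covariation, and the spreads and likeness without choroid-poor libraries, were added after the data were seen. Without the 2 libraries farthest in Cd74, r was 0.53 for H2-Aa, 0.32 for H2-Ab1 and 0.65 for H2-Eb1, none past the threshold. With single libraries left out it was 0.80 to 0.98, 0.73 to 0.97 and 0.86 to 0.95, and -0.26 to -0.14 for Ciita. Adjusted p missed the threshold for H2-Ab1 without any one of the 5 circTau6 libraries, and for H2-Aa without circTau6 replicate 4 or 5. That of Ciita passed it without control replicate 5 alone (r = -0.23, adjusted p = 0.0198 in the permutation test, against 0.103 to 0.690 in the other settings). Depth limits Ciita, at 6 to 24 counts, and H2-Oa, H2-Ob and H2-DMb2, below the filter.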
